A study of Mus musculus with 6 samples.

Results

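The complement regulators and components described here are 6 genes, Cd55, Cr1l, Cd59a, Cfp, C3 and Cd93, of 35853 genes in the table. They were picked as members of the complement system whose values in the comparison of Ly6C-high with Ly6C-low neutrophils were already known. Their differences between those groups are therefore a description and carry no test. RNA was sequenced from blood neutrophils of WT BALB/C mice 4 weeks after 4T1 cells, a breast cancer line of the same strain, had been implanted orthotopically. Red cells were lysed, and Ly6G+ cells were sorted by surface Ly6C into 3 Ly6C-high and 3 Ly6C-low libraries. All 6 libraries came from tumour-bearing animals, so neither group describes neutrophils of a mouse without a tumour. Whether the libraries within a group stand for separate mice is not stated, so every p-value reflects only the spread among libraries, part or all of which may be technical.

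Complement is a cascade of plasma proteins that is set off by antibody, by lectins or, in the alternative pathway, by slow spontaneous activation of C3. Activated C3 is bound to surfaces and builds enzymes, the convertases, that activate more C3 and then C5. Host cells carry membrane proteins that take the convertases apart or block the final pore. Neutrophils are both a source of complement proteins, properdin above all, and a target of complement, through receptors for C5a and for fragments of C3.

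Cd55 encodes decay-accelerating factor, a protein held in the membrane by a glycosylphosphatidylinositol (GPI) anchor that speeds the decay of C3 and C5 convertases. Mice carry a neighbouring copy, Cd55b, whose transcripts are best known from testis. The promoters of this pair are shown because the copies share sequence and reads, and yet differ widely in level in these libraries. Both run from 250 bases before to 50 after the annotated start in RefSeq on GRCm38.p6, on the minus strand, Cd55 at chr1:130462695-130462994 and Cd55b at chr1:130422994-130423293. Capitals mark every base that lies in a run of at least 12 bases found in both windows. Where such runs adjoin or overlap their capitals join, so a stretch of capitals need not be shared as a whole.
Cd55: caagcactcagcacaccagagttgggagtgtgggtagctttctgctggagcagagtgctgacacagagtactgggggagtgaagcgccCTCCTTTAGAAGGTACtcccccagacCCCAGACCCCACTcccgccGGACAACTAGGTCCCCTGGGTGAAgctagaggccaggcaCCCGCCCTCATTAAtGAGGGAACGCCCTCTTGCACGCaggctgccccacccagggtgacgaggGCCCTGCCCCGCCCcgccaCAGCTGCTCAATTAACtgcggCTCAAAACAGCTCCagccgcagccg
Cd55b: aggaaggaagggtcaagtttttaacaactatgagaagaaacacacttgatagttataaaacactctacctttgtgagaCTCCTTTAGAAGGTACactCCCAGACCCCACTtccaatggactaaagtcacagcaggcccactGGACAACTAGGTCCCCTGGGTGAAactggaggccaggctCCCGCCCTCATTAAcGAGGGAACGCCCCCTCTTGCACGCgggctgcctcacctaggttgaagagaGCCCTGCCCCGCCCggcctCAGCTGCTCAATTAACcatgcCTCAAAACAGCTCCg

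Shared runs took up 133 bases of the Cd55 window and 135 of the Cd55b window. Where the 2 windows could be aligned, 213 of 260 bases were identical (81.9%), and the longest shared run was GGACAACTAGGTCCCCTGGGTGAA, of 24 bases. Both windows held 2 GC boxes (GGGCGG, either strand), at -77 and -7 from the start in Cd55 and at -69 and 4 in Cd55b. At least 1 such box is present in 35.7% of 32851 mouse promoter windows of the same length. Both also held the E box CAGCTG, at 5 in Cd55 and at 15 in Cd55b, a motif found in 16.3% of the windows. A match is a description of letters in a window and not a binding site.

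The promoters of Cr1l and C3 are given beside them, since these were the most abundant membrane regulator and the most abundant of the 6 genes. Cr1l encodes Crry, the broadly expressed rodent regulator that spans the membrane and both dissociates C3 convertases and helps factor I to cleave C3b. C3 encodes the central component of all pathways. Both windows are on the minus strand, Cr1l at chr1:195131521-195131820 and C3 at chr17:57228087-57228386. Here capitals mark any of the 8 motifs searched on either strand. Besides the GC box and the E box these were the C/EBP form (TTGCNNAA), the core of hypoxia response elements (ACGTG) and a loose NF-kB form (GGG and CC with 5 bases between them). Also searched were the cAMP response element (TGACGTCA), the gamma-activated site (TTCNNNGAA) and an interferon response form (GAAA repeated after 2 bases).
Cr1l: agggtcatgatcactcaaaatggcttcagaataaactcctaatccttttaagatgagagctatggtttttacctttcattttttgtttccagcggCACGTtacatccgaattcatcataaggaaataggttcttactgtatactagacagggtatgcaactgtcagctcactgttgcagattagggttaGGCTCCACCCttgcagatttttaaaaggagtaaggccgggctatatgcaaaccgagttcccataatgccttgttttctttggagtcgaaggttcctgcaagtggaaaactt
C3: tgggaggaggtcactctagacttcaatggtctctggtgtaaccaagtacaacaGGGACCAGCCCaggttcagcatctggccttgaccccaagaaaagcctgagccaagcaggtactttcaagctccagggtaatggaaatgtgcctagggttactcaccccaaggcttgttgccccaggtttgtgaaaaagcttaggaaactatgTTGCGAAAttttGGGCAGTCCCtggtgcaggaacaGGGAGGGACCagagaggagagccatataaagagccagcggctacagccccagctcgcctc

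The C3 window held the C/EBP form TTGCGAAA at -45, a form present in 10.8% of all windows. C/EBP proteins are transcription factors of the myeloid lineage and of the acute-phase response. The loose NF-kB form stood in the windows of Cd55, Cr1l, Cd59a, Cfp and C3, in that of the copy Cd55b, and in 50.8% of all windows. Its matches overlap one another in the Cd55, Cd55b and C3 windows. The match GGGAACGCCC stood in both copies, at -61 in Cd55 and at -53 in Cd55b. The interferon response form (3.44% of windows) stood in the Cd59a window at -187, and the hypoxia core (19.6%) in the Cr1l window at -155. Of the 6 genes 5 had a promoter entry, all but Cd93.

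The estimated counts summed to between 17192372 and 20973623 per library, and 11406 genes were kept by the filter on low counts. The sort was visible in the RNA of Ly6c1 and Ly6c2, closely related genes between which reads may be divided. Ly6c1 had 72.8, 101 and 86.2 TPM in the Ly6C-high libraries and 8.64, 17 and 10.4 TPM in the Ly6C-low libraries. Its log2 fold change was 3.07 (SE 0.22, adjusted p = 0.00273 by edgeR's quasi-likelihood test with Benjamini-Hochberg adjustment), and that of Ly6c2 was 2.90 (SE 0.21, adjusted p = 0.00382 by the same test). All 8 neutrophil markers were present, led by S100a9 and S100a8, and summed to 366122 to 371394 TPM in the Ly6C-high and 337431 to 353962 TPM in the Ly6C-low libraries. Ly6C-low replicate 3 stood apart. On the first principal component, which held 32.8% of the variance, it lay at 38.02 and the other 5 libraries between -19.65 and 3.91. It also had the lowest sum of estimated counts, so the fold changes of the 6 genes and the medians are given with and without it. Of the 11406 genes tested 4 passed an adjusted p of 0.05 (0.0351%), none of them a complement gene.

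Among the 6 genes the levels fell into a high and a low set in both groups, with Cd55 in between. C3, Cfp and Cr1l lay above 100 TPM in every library, Cd55 lay between 11.9 and 23.3 TPM, and Cd93 and Cd59a lay below 1 TPM. In the Ly6C-high libraries the order by mean was C3, Cfp, Cr1l, Cd55, Cd93 and Cd59a, and no neighbours in that order overlapped. In the Ly6C-low libraries the order by mean was the same, but the ranges of C3, Cfp and Cr1l overlapped, as did those of Cd93 and Cd59a, so that these neighbours do not differ there beyond the spread. TPM, a transcript's share of all transcripts, is scaled by transcript length and so allows levels of different genes to be compared.

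**Figure D1:**
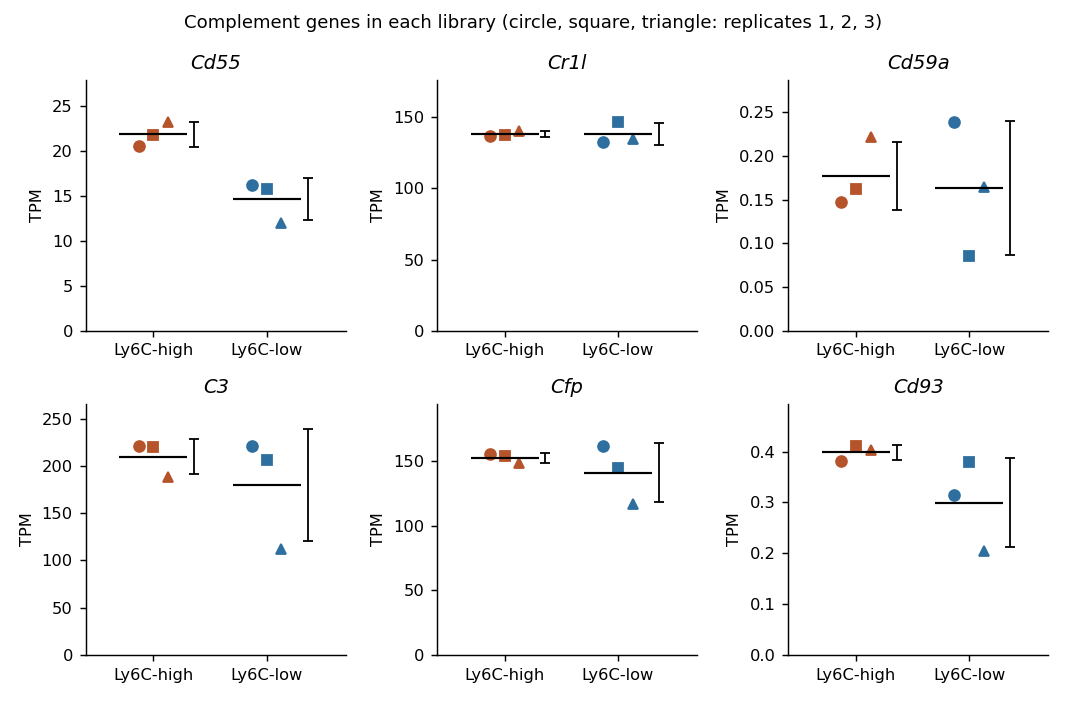
Level of each of the 6 genes in TPM (y axis, linear and from 0, scaled for each gene) in the 3 Ly6C-high and the 3 Ly6C-low libraries. Points are libraries, lines the group means and bars the SD over 3 libraries. The groups are apart for Cd55 and Cd93 and overlap for Cr1l, Cd59a, C3 and Cfp.

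Cd55 was higher in the Ly6C-high neutrophils. It had 20.5, 21.7 and 23.3 TPM in Ly6C-high replicates 1, 2 and 3, and 16.2, 15.8 and 11.9 TPM in Ly6C-low replicates 1, 2 and 3. Every Ly6C-high library lay above every Ly6C-low library, and Ly6C-low replicate 3 was the lowest. The means were 21.8 ± 1.38 TPM in the Ly6C-high and 14.6 ± 2.35 TPM in the Ly6C-low group (SD, n = 3 each). The estimated counts behind them were 821, 831 and 961 in the Ly6C-high and 649, 648 and 443 in the Ly6C-low libraries, where counting error is smaller than the difference. The fitted log2 fold change was 0.58 (SE 0.13), or 1.5-fold, and 0.44 without Ly6C-low replicate 3. In sorted but bulk samples, a smaller number of cells that carry a transcript and less of it per cell cannot be told apart.

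Cd55 has 5 annotated transcripts here, and the difference was not carried by any one of them. The protein-coding Cd55-201 had estimated counts of 463, 465 and 537 in the Ly6C-high and 335, 383 and 259 in the Ly6C-low libraries. It held 55.9% to 56.4% of the counts of the gene in the Ly6C-high and 51.7% to 59.1% in the Ly6C-low libraries. Cd55-205, annotated as a transcript with a retained intron, had 299, 306 and 351 in the Ly6C-high and 270, 243 and 163 in the Ly6C-low libraries. Its share was 36.4% to 36.8% in the Ly6C-high and 36.8% to 41.6% in the Ly6C-low libraries. The share of Cd55-201 overlapped between the groups. That of Cd55-205 all but met, at 36.81% in the highest Ly6C-high and 36.83% in the lowest Ly6C-low library. So small a gap in estimated counts does not set the groups apart. The counts of both forms were higher in every Ly6C-high library.

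**Figure D2:**
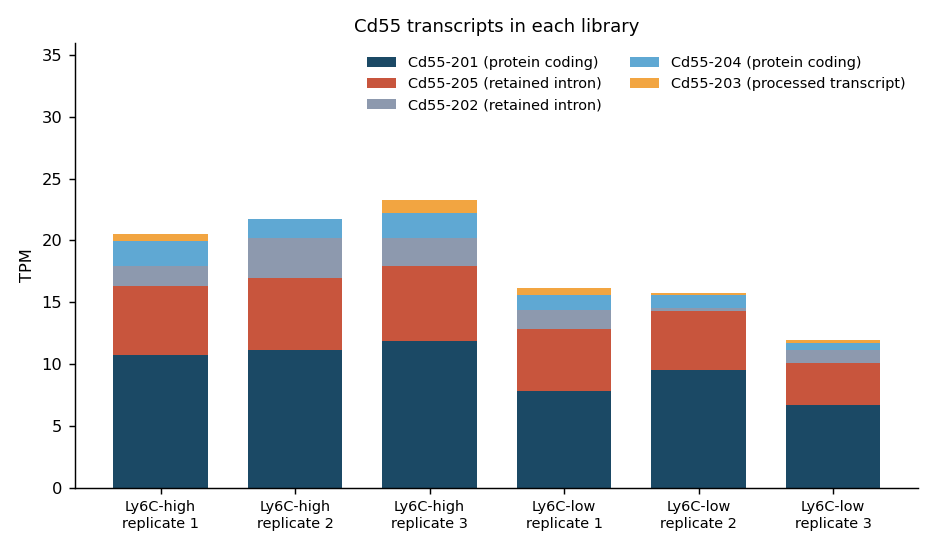
Cd55 by transcript in each library, in TPM (y axis), with the 3 Ly6C-high libraries on the left and the 3 Ly6C-low libraries on the right. Stacked colours are the 5 annotated transcripts. Cd55-201 and Cd55-205 form most of every bar, and every Ly6C-high bar is taller than every Ly6C-low bar.

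The copy Cd55b was near the floor in both groups, with 0.528, 0.242 and 0.447 TPM in the Ly6C-high and 0.316, 0.500 and 0.339 TPM in the Ly6C-low libraries. It was not kept by the filter, and its groups overlapped. Of the 31-base words of the Cd55 transcripts 11.2% also occur in Cd55b, against 31.8% of the words of Cd55b that occur in Cd55. Reads from such stretches are divided between the genes by the quantification, so the low level of Cd55b is uncertain. Cd55 exceeded it by 38.8, 89.8 and 52.0 times in the Ly6C-high and by 51.2, 31.6 and 35.2 times in the Ly6C-low libraries, in TPM.

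Cr1l was the main membrane regulator by RNA and did not separate the groups. It had 137, 138 and 141 TPM in the Ly6C-high and 133, 147 and 135 TPM in the Ly6C-low libraries. The Ly6C-high values lay inside the range of the Ly6C-low values. The log2 fold change was 0.05 (SE 0.08) and 0.01 without Ly6C-low replicate 3. It was -0.06 when libraries were scaled only by their totals, a scaling under which the median of all genes lay at -0.11.

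The ratio of the pair separated the groups. Cr1l exceeded Cd55 by 6.69, 6.33 and 6.05 times in the Ly6C-high libraries and by 8.23, 9.32 and 11.3 times in the Ly6C-low libraries, in TPM. This ratio is taken within a library and does not depend on scaling between libraries. Cd55 made up 12.5%, 13.2% and 13.4% of the summed TPM of 10 membrane regulators in the Ly6C-high and 10.5%, 9.20% and 7.72% in the Ly6C-low libraries, without overlap. The sum itself was 164, 164 and 173 TPM in the Ly6C-high and 153, 172 and 154 TPM in the Ly6C-low libraries and overlapped.

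Most of the Cr1l signal came from protein-coding transcripts, with Cr1l-201 at 55.5% to 59.3% of the counts of the gene in the Ly6C-high and 57.6% to 59.6% in the Ly6C-low libraries. Several forms of the gene did not overlap between the groups in counts or in TPM, in both directions. Cr1l-206, annotated as a target of nonsense-mediated decay, had estimated counts of 32.0, 41.6 and 30.9 in the Ly6C-high and 6.57, 10.8 and 10.7 in the Ly6C-low libraries. It held 4.61% to 6.73% of the TPM of the gene in the Ly6C-high and 1.08% to 1.91% in the Ly6C-low libraries. Cr1l-205, with a retained intron, had counts of 17.7 to 33.3 in the Ly6C-high and 13.4 to 16.8 in the Ly6C-low libraries. The protein-coding Cr1l-208 lay the other way in TPM only, at 15.3 to 17.6 in the Ly6C-high and 17.8 to 20.3 in the Ly6C-low libraries. Its counts overlapped, at 351 to 437 in the Ly6C-high and 378 to 479 in the Ly6C-low libraries. These 3 were picked out after their values were seen, from 10 transcripts of the gene, and the estimates for Cr1l-205 and Cr1l-206 rest on few reads. The pseudogene Crry-ps shares 6.08% of the 31-base words of Cr1l.

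CD59 is a GPI-anchored protein that stops the assembly of the membrane attack complex, and mice have the copies Cd59a and Cd59b. Cd59a, the widely expressed copy, had 4, 4 and 6 estimated counts in the Ly6C-high and 7, 2 and 4 in the Ly6C-low libraries. That is 0.147, 0.162 and 0.221 TPM in the Ly6C-high and 0.239, 0.0854 and 0.164 TPM in the Ly6C-low libraries. These values lie close to a floor of 3 counts, or 0.147 to 0.160 CPM per library, and a difference was not detectable at this depth. Cd59b had 3.55, 2.39 and 3.61 TPM in the Ly6C-high and 1.95, 3.90 and 2.94 TPM in the Ly6C-low libraries, from 12 to 23 estimated counts. Its log2 fold change was 0.20 (95% interval -0.61 to 1.02, adjusted p = 0.842 by edgeR's quasi-likelihood test with Benjamini-Hochberg adjustment). Of the 31-base words of Cd59a 8.23% also occur in Cd59b, so their division is uncertain too.

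Among the other membrane regulators, Cd46, a cofactor for factor I that in mice is best known from the sperm acrosome, had 1.2 to 2.87 TPM in the Ly6C-high and 1.25 to 2.55 TPM in the Ly6C-low libraries. Its log2 fold change was -0.21 (SE 0.29, adjusted p = 0.783). Cr2, the receptor for C3 fragments on B cells and follicular dendritic cells, reached at most 0.551 TPM in the Ly6C-high and 1.26 TPM in the Ly6C-low libraries. The membrane regulators of these neutrophils were thus, by RNA, almost wholly Cr1l and Cd55 in both groups.

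The soluble components C3 and Cfp were abundant in both groups, and the distance between the groups came mostly from 1 library. Cfp encodes properdin, the plasma protein that stabilises the alternative pathway convertase and is stored in neutrophil granules. It had 156, 154 and 148 TPM in the Ly6C-high and 162, 145 and 117 TPM in the Ly6C-low libraries. Ly6C-low replicate 1 was the highest of all 6 libraries and Ly6C-low replicate 3 the lowest. The log2 fold change was 0.21 (SE 0.13), and 0.07 without Ly6C-low replicate 3.

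C3 had 221, 219 and 188 TPM in the Ly6C-high and 221, 206 and 112 TPM in the Ly6C-low libraries. The groups overlapped, and Ly6C-low replicate 3 alone lay well below the rest. Group means were 209 ± 18.6 TPM in the Ly6C-high and 180 ± 59.4 TPM in the Ly6C-low group (SD, n = 3 each). The log2 fold change was 0.32 (SE 0.27), and 0.05 without that library. C3-201 held more than 99% of the counts of the gene in every library, as Cfp-201 did for Cfp, and no 31-base word of either gene occurs in another gene. The ratio of C3 to Cfp in TPM was 1.42, 1.43 and 1.27 in the Ly6C-high and 1.37, 1.42 and 0.956 in the Ly6C-low libraries.

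Cd93 encodes a transmembrane lectin-like protein of myeloid and endothelial cells that was once described as a phagocytic receptor for C1q. It was scarce, with 0.382, 0.411 and 0.403 TPM in the Ly6C-high and 0.315, 0.379 and 0.205 TPM in the Ly6C-low libraries. The groups did not overlap, although Ly6C-low replicate 2 lay within 0.01 TPM of the lowest Ly6C-high library. The estimated counts were 46, 48 and 51 in the Ly6C-high and 38, 43 and 22 in the Ly6C-low libraries. The log2 fold change was 0.49 (SE 0.27), and 0.27 without Ly6C-low replicate 3.

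**Figure D3:**
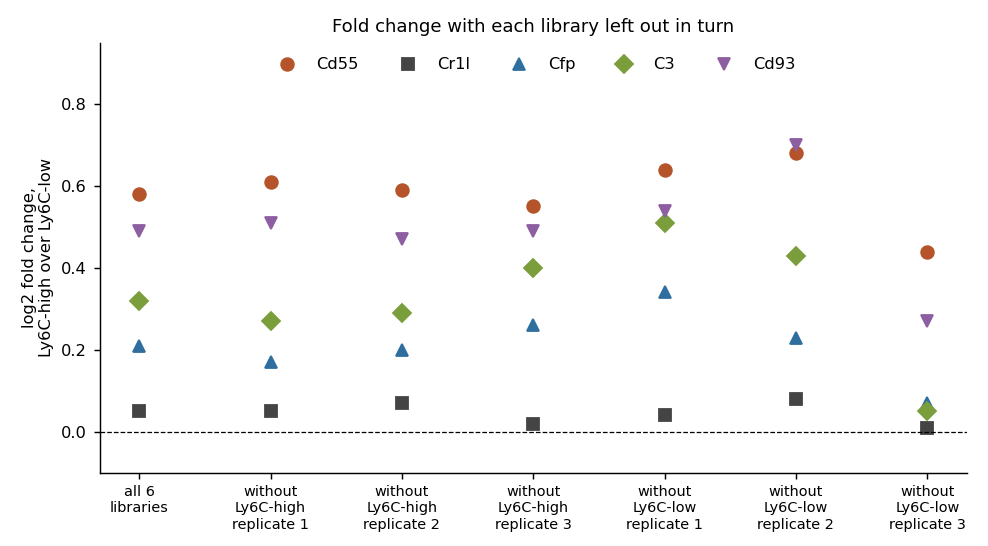
Log2 fold change, Ly6C-high over Ly6C-low (y axis), of the 5 genes kept by the filter, from all 6 libraries and with each library left out in turn (x axis). Each symbol is a gene, and the dashed line marks 0. Without Ly6C-low replicate 3 all 5 values are at their lowest, 0.44 for Cd55 and 0.27 for Cd93, with C3, Cfp and Cr1l between 0.01 and 0.07.

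Of the 6 genes 5 were kept by the filter, and edgeR's quasi-likelihood test called 0 of them, limma voom 0 and DESeq2, which gave Cd93 no adjusted p, 1 of the remaining 4, Cd55. With the replicate number as a block edgeR also called 0 of the 5. Over all genes the called share was 0.0351% for edgeR, 0.535% for edgeR with the block, 0.0263% for limma voom and 1.48% of the 7425 genes with an adjusted p for DESeq2. The groups did not overlap in CPM for 2 of the 5, Cd55 and Cd93, both higher, as against 10.3% of all genes tested that were higher without overlap. These counts belong to genes picked on the same comparison and are given only as a description. The median log2 fold change of the 5 was 0.32 with all libraries and 0.07 without Ly6C-low replicate 3, beside -0.00 and 0.00 over all genes tested.

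The rest of the pathway, 50 further complement genes, showed no common direction. Of these 49 were in the table, 16 lay at 0 in every library and 36 below 1 TPM in every library. Among the genes at 0 were C1qa, C1qb and C1qc, the chains of C1q, Cfi, the protease that cleaves C3b, and C9, the pore-forming component. A count of 0 allows up to 3 counts, or at most 0.160 CPM in a library. Of the 16 that were tested 8 lay above and 8 below 0, with a median log2 fold change of -0.03, and 0.04 without Ly6C-low replicate 3. Among these 16 edgeR's quasi-likelihood test called 0, limma voom 0 and DESeq2 1, Itgax. At an unadjusted p under 0.05 edgeR gave 2 higher and 2 lower, as against 6.92% higher and 7.34% lower over all genes tested. In CPM 3 of the 16, Hc, Itgam and Itgb2, were higher without overlap and 1, Itgax, lower, as against 10.3% and 10.9% of all genes tested.

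**Figure D4:**
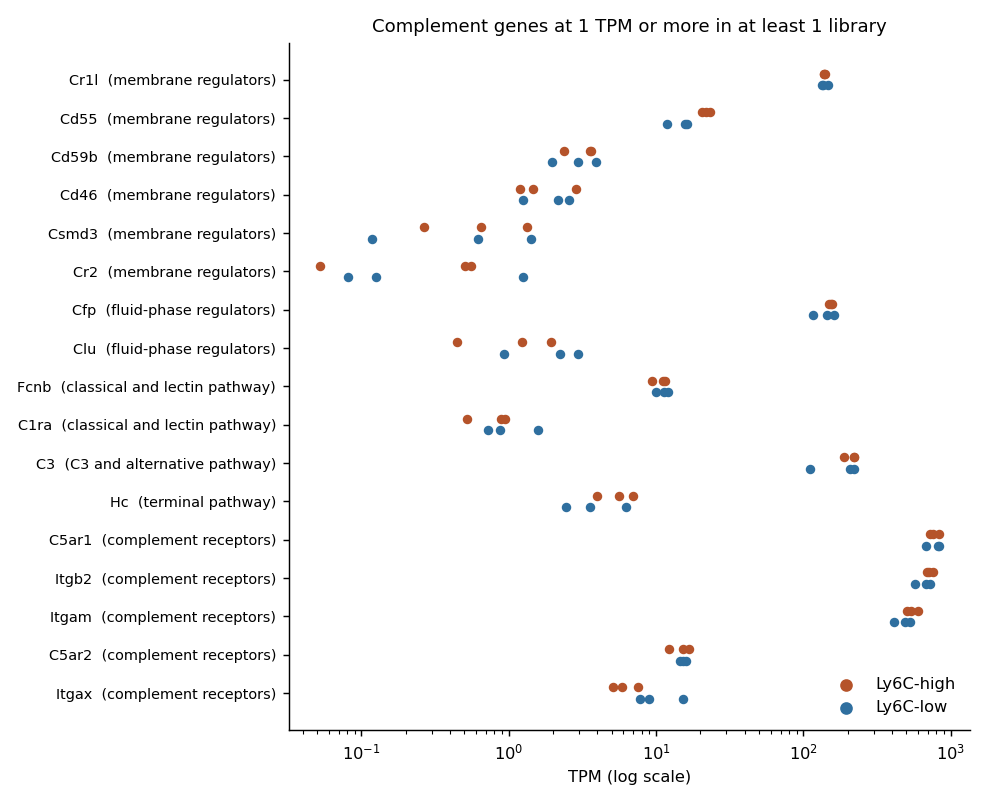
Levels of the complement genes that reach 1 TPM in at least 1 library, in TPM on a log axis, grouped by role. Each point is a library, with Ly6C-high above Ly6C-low for each gene. C5ar1, Itgb2 and Itgam lead, C3, Cfp and Cr1l follow above 100 TPM, and every other gene lies at or below 23.3 TPM, the highest value of Cd55.

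The most abundant genes of the pathway were the receptor genes C5ar1, Itgb2 and Itgam. Of the 9 listed receptor genes 4 lay below 1 TPM in every library. C5ar1, the receptor through which C5a attracts neutrophils, had 762, 828 and 727 TPM in the Ly6C-high and 838, 820 and 680 TPM in the Ly6C-low libraries. Its groups overlapped, with a log2 fold change of 0.10 (95% interval -0.14 to 0.35, adjusted p = 0.711 by edgeR's quasi-likelihood test with Benjamini-Hochberg adjustment). C5ar2, a C5a receptor that does not couple to G proteins, averaged 14.8 ± 2.35 TPM in the Ly6C-high and 15.3 ± 0.711 TPM in the Ly6C-low group (SD, n = 3 each, adjusted p = 0.870 by the same edgeR test).

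Itgam and Itgb2 encode the chains CD11b and CD18 of complement receptor 3, which binds C3 fragments. Itgam had 539, 599 and 501 TPM in the Ly6C-high and 527, 487 and 411 TPM in the Ly6C-low libraries. The groups overlapped in TPM and not in CPM, and the log2 fold change was 0.33 (SE 0.12, adjusted p = 0.283 by the same edgeR test). Itgb2 averaged 720 ± 37.4 TPM in the Ly6C-high and 658 ± 74.1 TPM in the Ly6C-low group (SD, n = 3 each), with a log2 fold change of 0.23 (SE 0.12, adjusted p = 0.405 by the same edgeR test).

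Itgax, the CD11c chain that pairs with CD18 in complement receptor 4, lay the other way. It had 5.08, 5.86 and 7.52 TPM in the Ly6C-high and 7.73, 8.90 and 15.3 TPM in the Ly6C-low libraries, and the groups did not overlap. Its log2 fold change was -0.74 (SE 0.15, adjusted p = 0.142 by edgeR's quasi-likelihood test), and -0.57 without Ly6C-low replicate 3. It passed with DESeq2 (adjusted p = 0.0051). CD11c is also carried by monocytes, eosinophils and dendritic cells. Monocyte and macrophage markers, led by Csf1r and Nr4a1, summed to 116 to 139 TPM in the Ly6C-high and 149 to 178 TPM in the Ly6C-low libraries. That sum was carried by Csf1r (log2 fold change -0.18) and Nr4a1 (-0.71). Of the 7 tested 4 lay above and 3 below 0, and none was at 0 in every library. At an unadjusted p under 0.05 edgeR gave 3 higher and 0 lower, as against 6.92% higher and 7.34% lower over all genes tested. The 3 were Cx3cr1 (2.46), Ccr2 (0.68) and F13a1 (0.79), with adjusted p of 0.153, 0.228 and 0.324 by edgeR. Cx3cr1 had 3 to 25 and F13a1 18 to 60 estimated counts per library. The part of these cells in the value of Itgax was not tested.

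Hc and Fcnb were the other complement genes with a mean of at least 5 CPM. Hc encodes C5, and had 7.0, 5.61 and 3.98 TPM in the Ly6C-high and 6.26, 2.45 and 3.56 TPM in the Ly6C-low libraries. The groups overlapped in TPM and not in CPM, where Hc lay at 5.63 to 6.82 in the Ly6C-high and 4.03 to 5.29 in the Ly6C-low libraries. Its log2 fold change was 0.45 (SE 0.18, adjusted p = 0.291 by edgeR's quasi-likelihood test with Benjamini-Hochberg adjustment). Fcnb encodes ficolin B, a lectin of the lectin pathway made by myeloid cells, and averaged 10.7 ± 1.10 TPM in the Ly6C-high and 11.1 ± 1.10 TPM in the Ly6C-low group (SD, n = 3 each, adjusted p = 0.872 by the same edgeR test).

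**Figure D5:**
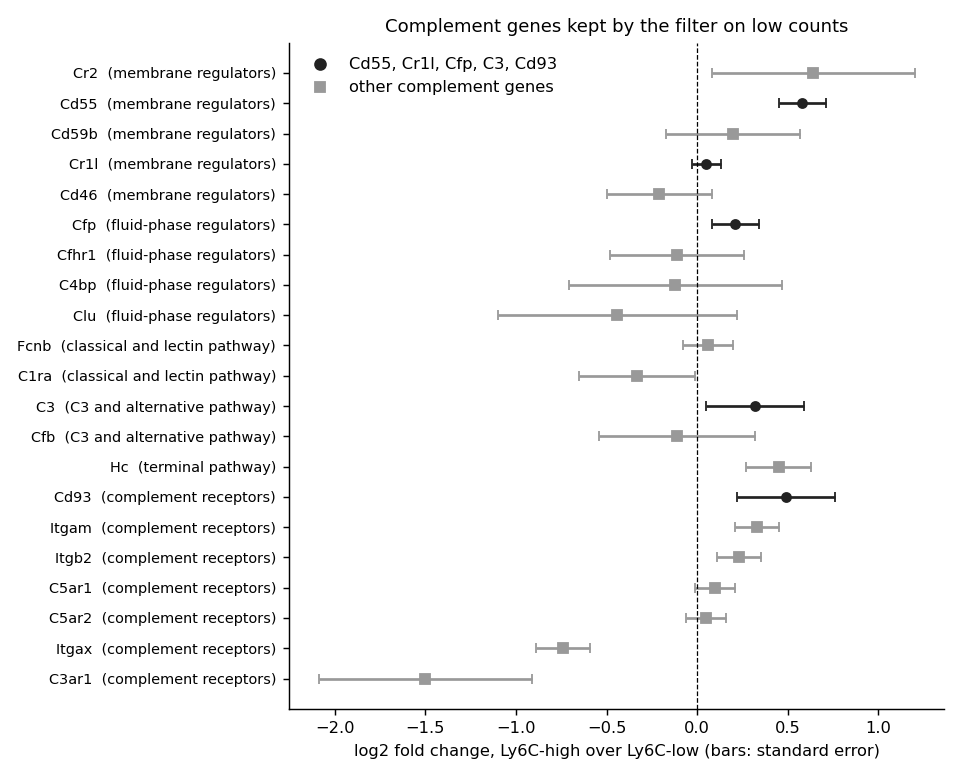
Log2 fold change, Ly6C-high over Ly6C-low (x axis), of the 21 complement genes kept by the filter, with the standard error as a bar and the genes grouped by role. Black circles are Cd55, Cr1l, Cfp, C3 and Cd93, and grey squares the 16 other genes, 8 of them on each side of 0. C3ar1, the C3a receptor, is the lowest at -1.50, with few counts and a wide bar.

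The sums of eosinophil markers and of basophil and mast cell markers were apart between the groups, as was the monocyte and macrophage sum above. Eosinophil markers, led by Siglecf and Ear2, summed to 19.2 to 24.0 TPM in the Ly6C-high and 39.4 to 44.1 TPM in the Ly6C-low libraries, and 5 of the 6 tested lay below 0. Alox15 of that list fell, with a log2 fold change of -2.89 (SE 0.35, adjusted p = 0.0132 by edgeR's quasi-likelihood test with Benjamini-Hochberg adjustment). Siglecf, the largest part of the sum, had 13.6 to 16.5 TPM in the Ly6C-high and 20.1 to 25.0 TPM in the Ly6C-low libraries. Its log2 fold change was -0.49 and that of Ear2 -0.15. Basophil and mast cell markers, led by Kit and Mcpt8, summed to 20.4 to 36.1 TPM in the Ly6C-high and 48.2 to 65.4 TPM in the Ly6C-low libraries. All 7 tested lay below 0. Kit formed the largest part of that sum and overlapped, at 16.1 to 32.9 TPM in the Ly6C-high and 28.7 to 57.9 TPM in the Ly6C-low libraries (adjusted p = 0.471 by edgeR). Mcpt8 did not overlap, at 0.897 to 1.35 TPM in the Ly6C-high and 3.74 to 15.2 TPM in the Ly6C-low libraries (adjusted p = 0.172 by edgeR). No gene of either list was at 0 in every library. The eosinophil list was uneven at low counts. Epx had 1 estimated count in all, and Prg2 had 0 in every Ly6C-high library and 3, 14 and 2 in the Ly6C-low libraries. Ear1 had 3, 2 and 1 in the Ly6C-high and 33, 50 and 17 in the Ly6C-low libraries (log2 fold change -3.98, SE 0.59, adjusted p = 0.0544 by edgeR). Ear6, not kept by the filter, had 3, 0 and 0 in the Ly6C-high and 38, 37 and 7 in the Ly6C-low libraries. Ear2 overlapped, at 22 to 52 in the Ly6C-high and 37 to 42 in the Ly6C-low libraries. The sums of B cell markers (Ighm and Cd79a the most abundant), T and NK cell markers (Cd3d and Trbc2), platelet markers (Pf4 and Ppbp) and erythroid markers (Hbb-bs and Hba-a2) overlapped between the groups. Of the 8 neutrophil markers 5 were higher in the Ly6C-high libraries without overlap in CPM, as Cd55 was, against 10.3% of all genes tested. Among them were Mmp8 (log2 fold change 0.59) and Ly6g (0.50), while S100a8 and Retnlg overlapped in TPM. Of the 8, edgeR's quasi-likelihood test called 0 and DESeq2 1, as against 0.0351% and 1.48% over all genes. The part of any of these cells in the complement values was not tested.

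Genes with a pattern most like that of each complement gene were sought among 7082 protein-coding genes, by Pearson r of log2 CPM over the 6 libraries. These are the highest of 7082 values over only 6 points, which share the libraries, their depth and the low value of Ly6C-low replicate 3, and are given as a description. For Cd55 they were Zcchc2 (r = 0.998), Ripor2 (0.996) and Vav3 (0.995), and for Cr1l Vps13d (0.981), Rnf213 (0.973) and Vps13c (0.970). For C3 they were Mapkapk2 (0.999), Nod1 (0.999) and Fbxo28 (0.995), and for Cfp Ltb4r1 (0.995), Il2rg (0.995) and Prok2 (0.994). For Cd93 they were Ywhah (0.9999), Synj1 (0.998) and Wdfy2 (0.997). Among the genes themselves r was 0.97 between C3 and Cfp, 0.95 between Cd55 and Cd93, 0.80 between Cd55 and C3 and 0.73 between Cd55 and Cr1l.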

How the data were processed

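RNA of 3 Ly6C-high and 3 Ly6C-low neutrophil libraries was analysed from 1 table per library. Per the labels' protocols, 100 ng of total RNA went into a poly(A) capture kit that marks strand, with 13 cycles of PCR, and was read single-end over 75 cycles. Per the submitters' processing notes, kallisto was used and the build was GRCm39. Its version, index and strand setting were not given in the sources used here, so antisense reads may be counted for a gene they overlap. The deposited tables hold estimated counts, TPM and effective length for 117486 transcripts, per the file headers. No molecular identifiers were used, so floors cover counting error only.

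Transcripts were assigned to genes with GENCODE M21 (on GRCm38, used for names, transcript types and 31-base words), which matched 99.04% of them. Gene values for 35853 genes are sums of the estimated counts, rounded to integers, and of the deposited TPM. The main test was edgeR 4.0.16 in R 4.3.3 (filterByExpr, TMM scaling, robust quasi-likelihood F test, group as the only term), with Benjamini-Hochberg adjustment over 11406 genes and a threshold of 0.05. CPM are TMM-scaled. The common biological coefficient of variation was 13.7%. Promoter windows are from RefSeq on GRCm38.p6. Pairs of libraries differed by a chi-square per gene of 14.3 to 69.2, so none was a copy of another.

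The 6 genes and the lists (complement, GPI anchor synthesis, markers of other cells) were chosen with earlier results of these data known. Named were the 6 genes, Ly6c1, Ly6c2 and Ly6g, the complement genes with a mean of at least 5 CPM, the 3 GPI anchor genes with the smallest p, the 2 most abundant genes of each marker list, and the 3 genes most alike each of the 6. Cd55b, Cd59b, Cd46, Cr2, C3ar1, Alox15, Epx, Prg2, Ear1, Ear6, Cx3cr1, Ccr2, F13a1, Mmp8, Retnlg, the genes at 0, Cr1l-205, Cr1l-206 and Cr1l-208 are named outside this rule. Ly6g had a log2 fold change of 0.50 (SE 0.18, adjusted p = 0.278 by edgeR). The alternatives were the replicate number as a block, scaling by DESeq2 size factors, scaling by library size alone, no filter, a mean count of at least 10, the DESeq2 1.42.0 Wald test, limma 3.58.1 voom, length-scaled TPM, and each library left out in turn.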

Additional observations from a re-analysis of the deposited data

How the results depend on the processing

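The log2 fold changes of Cd55 (0.44 to 0.68), Cfp (0.07 to 0.34), C3 (0.05 to 0.51) and Cd93 (0.27 to 0.70) stayed above 0 under all 14 alternatives, and that of Cr1l (-0.06 to 0.10) under all but library size alone. The 4 genes past the threshold became 8 with library size alone, 439 with no filter, 2 with length-scaled TPM, 110 with DESeq2 (71 higher, 39 lower) and 2 to 22 with each library left out, the highest without Ly6C-low replicate 3. Cd55 passed with no filter and with DESeq2. The cause was not tested. The median of the other complement genes (-0.03) became -0.13 with library size alone and lay between -0.11 and 0.11 with each library left out. Itgax passed with no filter, with DESeq2 and with the block.

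Whether libraries of the same replicate number belong together is not stated. Deviations of same-numbered libraries correlated at 0.24, -0.04 and 0.24 for replicates 1, 2 and 3. Replicates 1 and 3 correlated best with their own number and replicate 2 did not. So few values cannot settle whether the libraries are paired. With the replicate number as a block 61 genes passed (33 higher, 28 lower), none of the 6 genes among them, and Itgax had an adjusted p of 0.0168. Cd59a and Cd93 are limited by depth, with at most 7 and 51 estimated counts in a library.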

Other observations

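CD55 and CD59 reach the surface only with a GPI anchor, so the genes that build and attach the anchor were read beside them. Of 28 listed genes 27 were in the table and 23 were tested, with 11 above and 12 below 0 and a median log2 fold change of -0.02 (0.06 without Ly6C-low replicate 3). Among these 23 edgeR's quasi-likelihood test called 0, DESeq2 0 and limma voom 0, and 1 was higher and 1 lower at an unadjusted p under 0.05. Over all genes tested the called share was 0.0351% for edgeR, 1.48% for DESeq2 and 0.0263% for limma voom, and at that unadjusted p 6.92% were higher and 7.34% lower. Pigb, a mannosyltransferase of the pathway, had 65.9, 64.1 and 85.1 CPM in the Ly6C-high and 55.1, 62.2 and 55.3 CPM in the Ly6C-low libraries. Its log2 fold change was 0.32 (SE 0.12, adjusted p = 0.275 by edgeR). Pigf, which serves to add ethanolamine phosphate, had a log2 fold change of -0.87 (SE 0.39, adjusted p = 0.344 by edgeR) from 94 counts in all, and Pigg, of the same step, one of -0.49 (SE 0.25, adjusted p = 0.403 by edgeR). The summed level of the list was 320 to 366 TPM in the Ly6C-high and 345 to 366 TPM in the Ly6C-low libraries and overlapped.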
